A study of Mus musculus with 6 samples.

Results

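The genes described here are 10 components of the inflammasome and of pyroptosis, out of 55421 genes in the deposited count table: the sensors Nlrp3, Nlrc4 and Aim2, the NLRP3 partner kinase Nek7, the adaptor Pycard, the caspases Casp1 and Casp4, the pore-forming gasdermin Gsdmd and the cytokines Il1b and Il18. They were chosen by symbol, all 10 matched an Ensembl identifier, and all 10 passed the filter on low counts. RNA sequencing was done on primary mouse macrophages that had been differentiated from bone marrow cells in culture. Of the 6 libraries, 3 came from wells labelled Tmem175flox/flox Lyz2-Cre+/- (genotype field Tmem175-/-, called knockout here) and 3 from wells labelled WT. The labels name no stimulus, no age and no separate animals, so the levels below are those of cells with no labelled treatment and the p-values measure the spread between wells, which may be technical. Cre recombinase in the knockout wells is driven by the Lyz2 gene, which is active in myeloid cells, and no library with Cre alone or floxed alleles alone was analysed here, so loss of Tmem175 cannot be told apart from effects of Cre or of genetic background.

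TMEM175 conducts potassium ions and protons across endosomal and lysosomal membranes. Inflammasomes are cytosolic protein assemblies in which a sensor recruits the adaptor ASC, the product of Pycard, and through it caspase-1. Active caspase-1 cuts the precursors of IL-1β and IL-18 and cuts gasdermin D, whose freed end forms pores in the plasma membrane, and the lytic death that follows is called pyroptosis. In macrophages the system is usually described as needing a priming signal, such as a Toll-like receptor ligand acting through NF-κB to raise Il1b and Nlrp3 transcripts, and then an activating signal, such as loss of cell potassium for NLRP3.

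The sequences just upstream of 3 members are printed because these members are the ones whose transcripts are commonly described as inducible in priming. Each is the 250 bases before the annotated start, from RefSeq on GRCm38.p6, written 5′ to 3′ on the gene's own strand. Capitals mark matches to the motifs searched.
Il1b (chr2:129371140-129371389, minus strand): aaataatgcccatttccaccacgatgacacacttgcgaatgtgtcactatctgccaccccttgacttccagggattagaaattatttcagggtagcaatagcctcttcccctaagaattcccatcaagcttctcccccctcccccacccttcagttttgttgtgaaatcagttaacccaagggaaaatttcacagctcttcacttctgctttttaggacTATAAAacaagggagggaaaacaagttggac
Nlrp3 (chr11:59541319-59541568, plus strand): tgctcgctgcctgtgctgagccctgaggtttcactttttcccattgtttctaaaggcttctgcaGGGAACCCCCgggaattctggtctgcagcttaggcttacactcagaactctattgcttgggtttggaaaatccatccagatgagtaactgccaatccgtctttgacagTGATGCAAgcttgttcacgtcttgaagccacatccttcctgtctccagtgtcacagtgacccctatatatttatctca
Casp4 (chr9:5308599-5308848, plus strand): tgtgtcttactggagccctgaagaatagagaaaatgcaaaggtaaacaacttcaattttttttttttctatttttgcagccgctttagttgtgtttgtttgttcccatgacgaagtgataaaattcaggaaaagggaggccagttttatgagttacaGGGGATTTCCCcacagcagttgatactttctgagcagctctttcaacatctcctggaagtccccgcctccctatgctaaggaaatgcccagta

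The upstream windows were searched on both strands for 6 motifs: TATAAA, the κB consensus, TTCNNNGAA, GAGGAAG, TTGCNNNA and a pair of GAAA runs with any 2 bases between them. The Il1b window held TATAAA 31 to 26 bases before the start, a motif found in 12.4% of 32851 windows of the same length. Nlrp3 and Casp4 were the 2 of 9 members with a window whose sequence matched the κB consensus, which 3.90% of all windows matched. In Casp4 2 overlapping matches ran from 93 to 83 bases before the start, and in Nlrp3 the match ran from 186 to 177. The second motif in the Nlrp3 window, at 78 to 71 bases, was TTGCNNNA, present in 29.3% of all windows. RefSeq lists 2 starts each for Nlrp3 and Casp4, and the one nearest the GENCODE gene start was used. A match says only that the letters are present, and Gsdmd had no entry.

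Total counts ran from 24179548 to 31542741 per library. Tmem175, which checks the labels, stood at 14.3, 13.2 and 12.1 CPM in knockout wells and at 32.8, 33.4 and 33.2 CPM in wild type wells. CPM expresses each count as parts of its library's scaled total. No wild type well overlapped the knockouts, and edgeR put the log2 fold change at -1.33 (SE 0.07, adjusted p = 6.01e-05). The macrophage markers Adgre1, Csf1r and Cd68 stood at 2590, 4064 and 1350 CPM on average in wild type, all above the 99th percentile of genes tested per length. Summed neutrophil markers (12 of 12 tested) ran from 842 to 913 CPM in knockout and from 505 to 733 CPM in wild type libraries, with none called by edgeR and 8 at an unadjusted p under 0.05, 7 higher and 1 lower in knockout. S100a8 and S100a9 were the most abundant of the list. Their log2 fold changes were 0.70 (SE 0.10, edgeR adjusted p = 0.0521) and 0.61 (SE 0.11, edgeR adjusted p = 0.152). For Mpo, which encodes a granule enzyme, the log2 fold change was -0.76 (SE 0.18). The groups did not overlap for any of these genes. The sum of dendritic cell markers (8 of 8 tested) was mostly Itgax. It ran from 93.3 to 199 CPM in knockout and from 114 to 206 CPM in wild type. Of these 8 genes edgeR called none, and 6 had negative log2 fold changes. The unadjusted p was under 0.05 for 2 of them, both lower in knockout. The sum for T, B and NK cell markers (6 of 10 tested), nearly all of it Cd4, ran from 81.2 to 113 against 110 to 169 CPM. Of these 6 genes none was called, and 4 had an unadjusted p under 0.05, all lower in knockout. Among them the B cell gene Ms4a1, at 0.476 to 1.03 CPM in knockout against 1.52 to 2.19 CPM in wild type, had a log2 fold change of -1.36 (SE 0.31). The T cell marker Cd3e had a count of 0 in 2 libraries and at most 9 in the others. Mast cell and basophil markers (6 of 7 tested) summed to 13.1 to 20.4 against 20.2 to 29.1 CPM, with none called and 5 at an unadjusted p under 0.05. Lyz2, a macrophage gene that also drives Cre here, was the 1 marker called by edgeR, its log2 fold change being -0.89 (SE 0.080, adjusted p = 0.00415). The part of Cre in the Lyz2 value was not tested. For Adgre1, Csf1r and Cd68 the log2 fold changes were 0.040 (SE 0.056), 0.056 (SE 0.092) and 0.0024 (SE 0.051). Of the 8 macrophage markers 3, Lyz2 among them, had negative values and 5 positive ones. In bulk RNA, fewer cells of a type and less RNA per cell cannot be told apart, and the part of these cells in the values below was not tested.

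At rest the parts of the machinery stood at very unequal levels, as the plot of levels per library shows. Per kilobase (kb) of annotated exon, the executioner Gsdmd and the protease Casp1 were the most abundant members and the cytokine Il1b the least. Wild type Gsdmd was at 61.1 ± 5.68 and Casp1 at 51.7 ± 3.90 CPM per kb, against 2.44 ± 0.347 CPM per kb for Il1b (SD, n = 3 each). Within a wild type library Gsdmd was 20.8 to 30.2 times, Casp1 18.7 to 24.5 times and Nlrp3 7.90 to 11.9 times the level of Il1b.

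**Figure D1:**
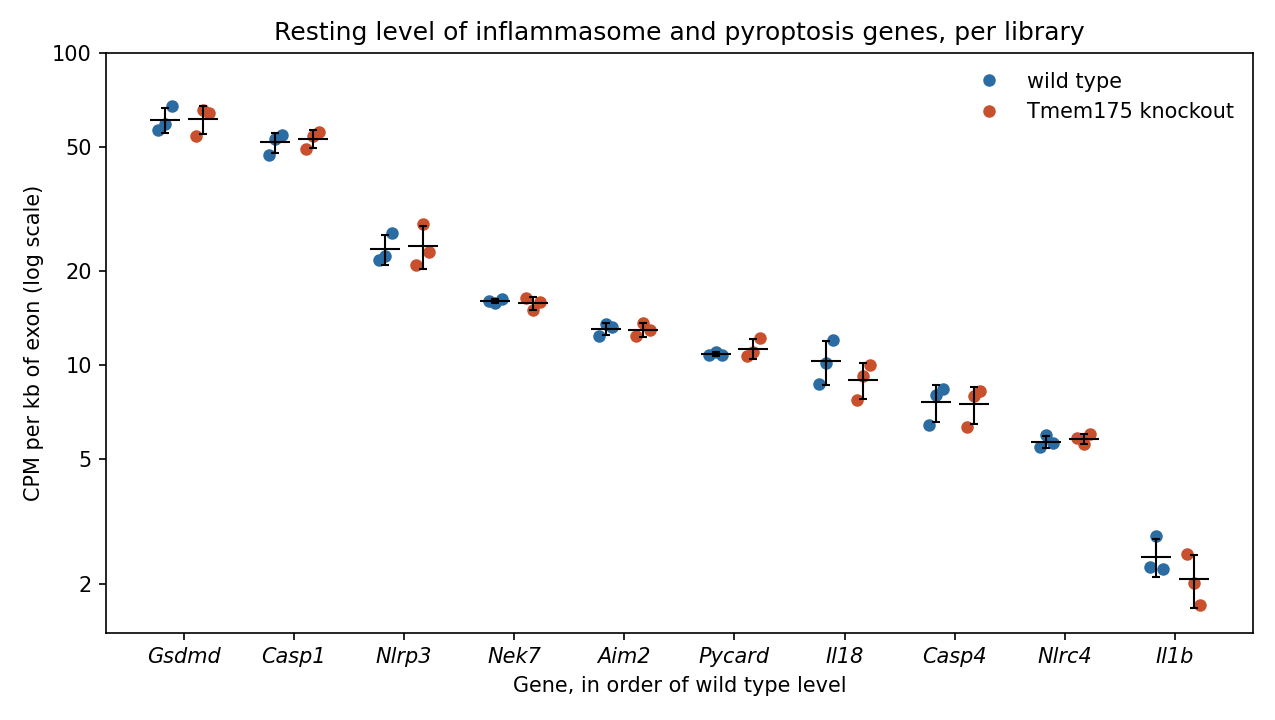
CPM per kb of exon (log scale) for the 10 genes, ordered by wild type level; points are libraries (blue wild type, red Tmem175 knockout), bars the mean and SD over 3 libraries. Gsdmd and Casp1 sit near 61.1 and 51.7 and Il1b near 2.44 CPM per kb in wild type, and the red and blue points overlap for every gene.

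Between these ends, wild type levels were 23.5 ± 2.56 for Nlrp3, 16.1 ± 0.197 for Nek7, 13.1 ± 0.621 for Aim2, 10.9 ± 0.158 for Pycard, 10.3 ± 1.67 for Il18, 7.62 ± 1.04 for Casp4 and 5.69 ± 0.258 CPM per kb for Nlrc4 (SD, n = 3 each). The order was the same in knockout, where all 10 genes kept their rank by mean. Of the 9 pairs of neighbours in this order, Pycard and Il18 overlapped in wild type libraries but not in knockout libraries. Gsdmd and Casp1, and also Il18 and Casp4, overlapped in knockout libraries but not in wild type libraries. The other 6 pairs did not overlap in either genotype. Levels per kb, and the places of Casp4, Il18 and Pycard, depend on the length used. With the longest annotated transcript in place of merged exons, Casp4 was at 14.9 CPM per kb, above Il18 at 12.0 and Pycard at 10.9. By that length Gsdmd was at 81.0, Nlrp3 at 23.7, Nek7 at 22.6, Aim2 at 16.1 and Il1b at 3.44 CPM per kb. Gsdmd and Casp1 stayed the most abundant and Il1b the least, but the ratios between genes given here hold only for merged exons. Pycard has 2 annotated transcripts but 3800 bases by either length, so this check could not move its level. If its reads came mostly from a shorter transcript, its level per kb would be higher than given here, and this was not tested.

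Against all 13579 genes tested that have an annotated length, 9 of the 10 members were above the median wild type level of 4.17 CPM per kb and 5 were above the 75th percentile. Gsdmd stood at percentile 94.7 and Casp1 at percentile 93.6, Nlrp3 at 85.7, Nek7 at 79.9 and Aim2 at 76.0. Il1b was the 1 member below the median, at percentile 39.1, whereas Il18, the other cytokine, was at percentile 70.8. The curve of all genes by level shows how these places spread.

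**Figure D2:**
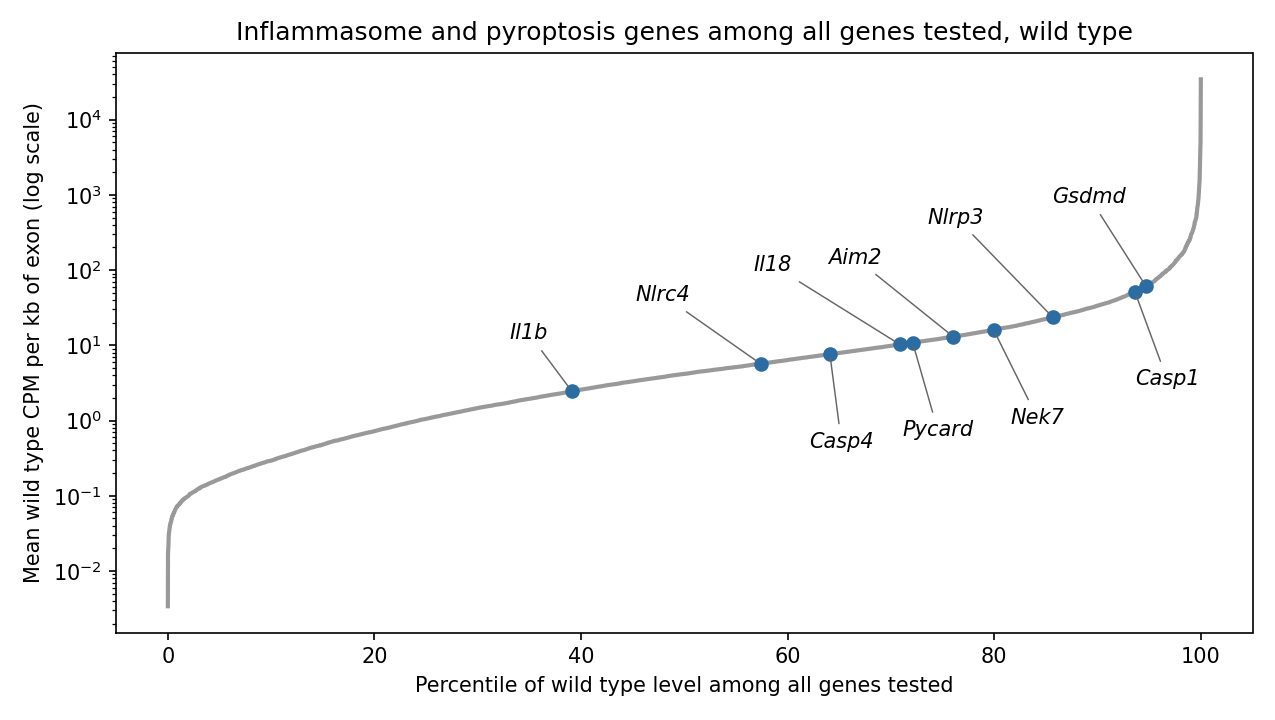
Mean wild type CPM per kb of exon (log scale) against percentile among the genes tested that have a length (grey line), with the 10 genes marked. Il1b, at percentile 39.1, is the 1 member left of the 50th percentile, and Gsdmd, at 94.7, lies furthest right.

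Knockout and wild type macrophages were then compared gene by gene. None of the 10 members passed the test: edgeR's quasi-likelihood test called 0 of 10 at an adjusted p under 0.05 (0.103% of 13588 genes tested, 0.0883% lower and 0.0147% higher in knockout), and 0 of 10 had an unadjusted p under 0.05 (5.44% of genes tested). DESeq2 and limma-voom also called 0 of 10. The groups overlapped for every member, while 10.8% of genes tested had groups that did not overlap, 5.06% lower and 5.73% higher in knockout. For all 10 the difference of the means was smaller than the pooled SD within the groups, but only just for Il1b (0.997 of that SD). The share of all genes tested with so small a difference was not computed. Log2 fold changes of the members ran from -0.23 to 0.057 with a median of 0.00034, beside a median of -0.00090 over all genes tested, and 5 were negative and 5 positive.

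**Figure D3:**
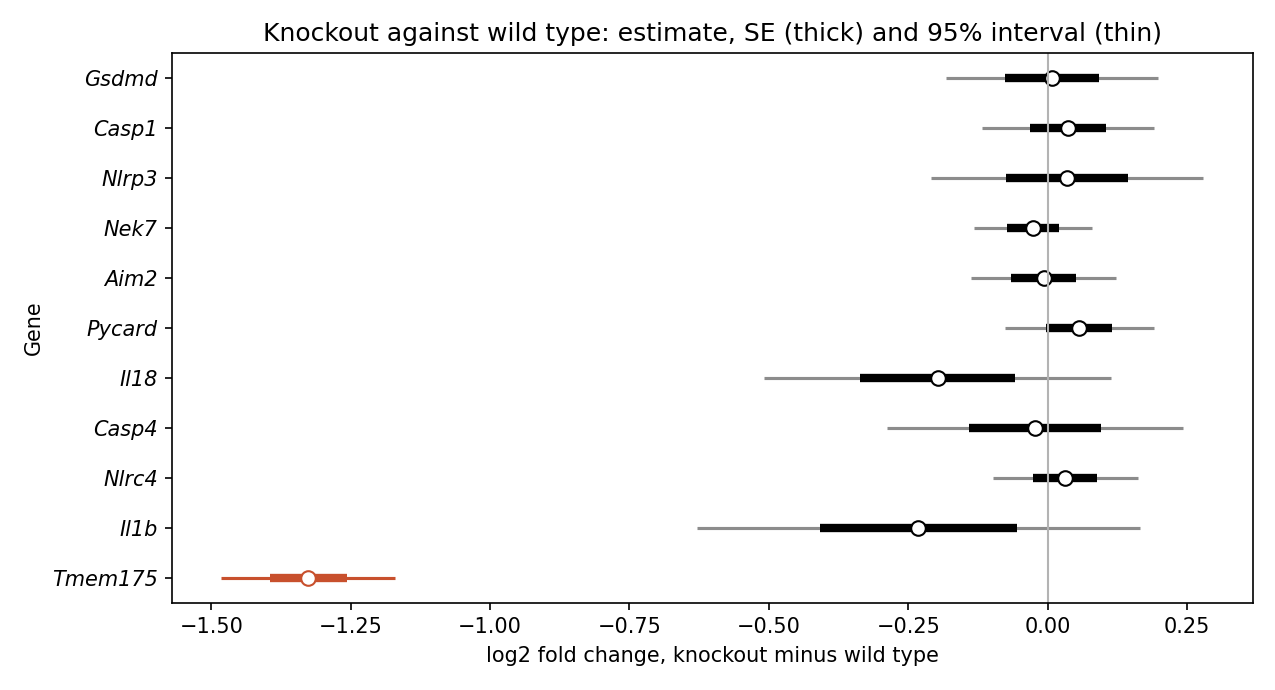
Log2 fold change of knockout minus wild type (points) with its SE (thick bars) and 95% interval (thin bars) for the 10 genes and, below them, Tmem175. Every member's interval spans 0, while Tmem175 lies at -1.33.

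The test left room for differences of a stated size. From the fitted standard errors, the 95% interval of the knockout to wild type ratio lay within 1.25-fold in either direction for 8 of 10 members and within 1.5-fold for 9 of 10. Il1b and Il18, the least abundant in counts, had the widest intervals, and Nek7 had the narrowest, from 0.912 to 1.06. A missed threshold does not show that the genotypes were equal.

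Among the sensors, Nlrp3 responds to a wide range of cell stress, including potassium efflux. Nlrp3 (ENSMUSG00000032691, chromosome 11, 59541568 to 59566956) stood at 85.2, 115 and 93.6 CPM in knockout wells and at 88.0, 91.1 and 107 CPM in wild type wells. Knockout replicates 1 and 2 were the lowest and the highest of the 6, so the wild type values lay inside the knockout range. The log2 fold change was 0.035 (SE 0.11, adjusted p = 0.981), with an interval of the ratio from 0.865 to 1.21. With 1 library left out the log2 fold change ran from -0.093, without knockout replicate 2, to 0.13.

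Nlrc4 (ENSMUSG00000039193, chromosome 17, 74425438 to 74459142) is the signalling partner of the NAIP receptors for bacterial flagellin and secretion system proteins. It was at 28.1, 26.9 and 28.9 CPM in knockout wells and at 26.3, 28.7 and 27.0 CPM in wild type wells. These values interleaved, and the log2 fold change was 0.031 (SE 0.058, adjusted p = 0.979). Per length, Nlrp3 was 3.76 to 4.70 times Nlrc4 within the wild type libraries. Aim2 (ENSMUSG00000037860, chromosome 1, 173350879 to 173466040), the sensor of double-stranded DNA in the cytosol, was at 43.3, 47.9 and 45.5 CPM in knockout wells and at 43.4, 47.5 and 46.6 CPM in wild type wells. Its 2 sets of values nearly coincided, with a log2 fold change of -0.0073 (SE 0.058) and an interval of the ratio from 0.909 to 1.09.

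Nek7 (ENSMUSG00000026393, chromosome 1, 138482875 to 138620141) is a mitotic kinase that also binds NLRP3 and is needed for its assembly. It varied least among the wild type libraries, at 119, 117 and 120 CPM, with 121, 111 and 117 CPM in the knockout libraries. The wild type values fell inside the knockout range, and the log2 fold change was -0.027 (SE 0.047). Pycard (ENSMUSG00000030793, chromosome 7, 127989708 to 127993867), which encodes the adaptor ASC, was at 40.7, 41.8 and 46.5 CPM in knockout wells and at 41.0, 42.0 and 40.9 CPM in wild type wells. Only knockout replicate 3 stood away from the other 5 libraries, and the log2 fold change was 0.057 (SE 0.059, adjusted p = 0.973). The exons of Pycard overlap those of Gm45205 on the opposite strand over 12.8% of their length, and the strand setting of the counting is not given in the sources used here, so reads of the pair cannot be told apart there.

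The inflammatory caspases lie next to each other on chromosome 9. Casp1 (ENSMUSG00000025888, 5298517 to 5307265), the protease of canonical inflammasomes, was at 73.5, 81.0 and 83.8 CPM in knockout wells and at 70.8, 79.7 and 81.8 CPM in wild type wells. In both genotypes replicate 1 was the lowest, and the log2 fold change was 0.036 (SE 0.068, adjusted p = 0.979). Casp4 (ENSMUSG00000033538, 5308828 to 5336783), which encodes the mouse caspase of the noncanonical pathway that binds bacterial lipopolysaccharide directly, was at 23.5, 29.5 and 30.7 CPM in knockout wells and at 23.9, 29.7 and 31.2 CPM in wild type wells. Replicate 1 was again the lowest in each genotype, and the spread within a genotype, 1.30 times from lowest to highest in each, exceeded the difference between them (log2 fold change -0.023, SE 0.12). Per length Casp1 was 6.51 to 7.34 times Casp4 within wild type libraries.

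Gsdmd (ENSMUSG00000022575, chromosome 15, 75862327 to 75867408) encodes the pore protein that both caspases cut. Its levels were 129, 156 and 153 CPM in knockout wells and 135, 141 and 160 CPM in wild type wells. The lowest value was that of knockout replicate 1 and the highest that of wild type replicate 3. The log2 fold change was 0.0080 (SE 0.085, adjusted p = 0.995), with an interval of the ratio from 0.882 to 1.15.

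The cytokines had the largest differences of the 10, neither past the threshold. Il1b (ENSMUSG00000027398, chromosome 2, 129364570 to 129371139) had counts of 150, 115 and 86 in knockout wells and of 103, 132 and 107 in wild type wells, or 4.76, 3.83 and 3.27 CPM against 4.30, 5.42 and 4.25 CPM. Knockout replicates 2 and 3 were below all wild type libraries and knockout replicate 1 was above 2 of the 3. The log2 fold change was -0.23 (SE 0.18, adjusted p = 0.968), with an interval of the ratio from 0.646 to 1.12. With 1 library left out it ran from -0.39, without knockout replicate 1, to -0.11, without wild type replicate 2. It was -0.12 without knockout replicate 3.

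Il18 (ENSMUSG00000039217, chromosome 9, 50554827 to 50581840), a cytokine that drives interferon gamma production in lymphocytes, had counts of 251, 287 and 272 in knockout wells and of 215, 255 and 312 in wild type wells. In CPM these were 7.96, 9.55 and 10.3 against 8.98, 10.5 and 12.4. Wild type replicate 1 lay between the knockout values, and the other 2 wild type libraries lay above all of them. The log2 fold change was -0.20 (SE 0.14, adjusted p = 0.968), with an interval of the ratio from 0.703 to 1.08. It was -0.30 without wild type replicate 1 and -0.070 without wild type replicate 3. Per length Il18 was 3.57 to 5.39 times Il1b in wild type and 3.10 to 5.85 times Il1b in knockout libraries.

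In 8 of 10 members the lowest library was replicate 1 of a genotype, the knockout one in 6 and the wild type one in 2. The same share over all genes tested was not computed, so the count is not read as particular to these members. Casp4 stood 0.25 below its mean over the libraries in knockout replicate 1 and 0.22 below in wild type replicate 1 on the log2 scale. Gsdmd, Nlrp3 and Il18 were likewise below their mean in these 2 libraries and above it in wild type replicate 3. Il1b had another order, with its highest value in wild type replicate 2 and its lowest in knockout replicate 3. Between the highest and the lowest library the ratio was 1.66 for Il1b and 1.56 for Il18, but 1.10 for Nek7 and Nlrc4. The map of libraries and genes shows these orders, and the labels give no batch that matches them.

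**Figure D4:**
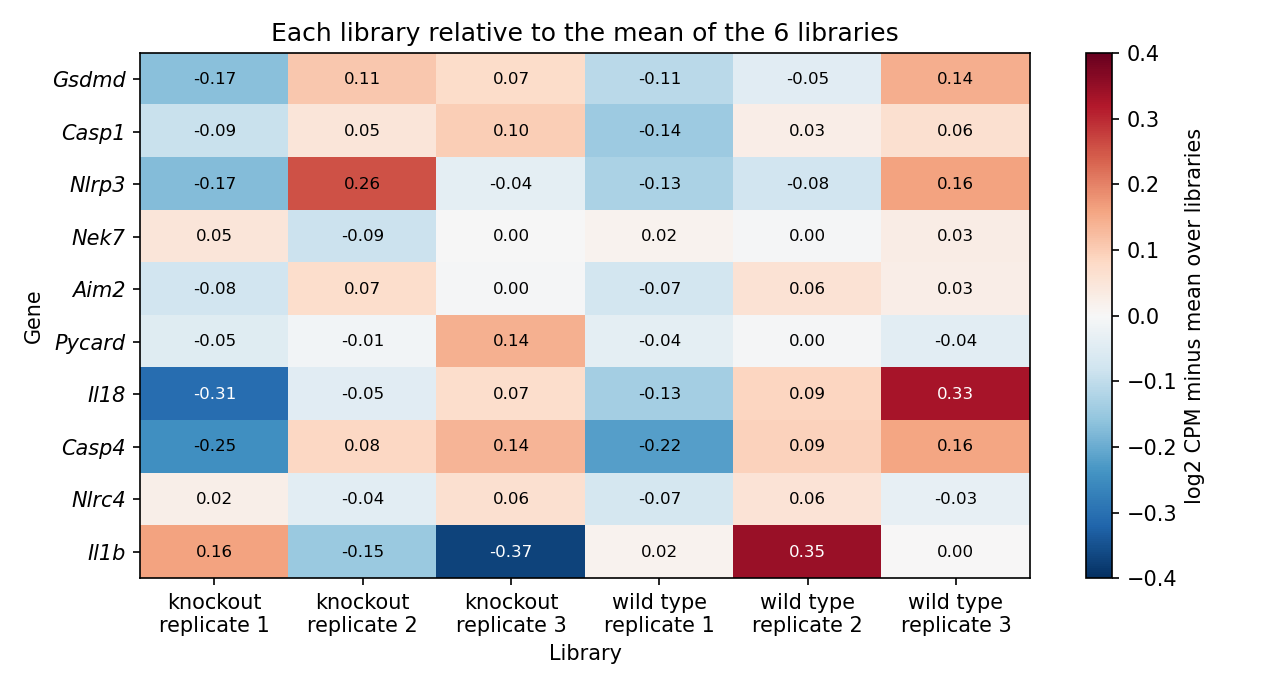
Log2 CPM of each gene in each library minus its mean over the 6 libraries (colour and printed number), with knockout libraries on the left and wild type on the right. Il18 runs from -0.31 in knockout replicate 1 to 0.33 in wild type replicate 3, and Nek7 and Nlrc4 stay within 0.09 of their mean.

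The genes whose pattern over the 6 libraries lay closest to Nlrp3 were Itga4, an integrin chain of leukocytes, Pot1b, a telomere protein, and Dapk1, a kinase linked to cell death. Their root mean square differences from Nlrp3 in mean-centred log2 CPM were 0.036, 0.041 and 0.043, beside 0.15 for the deviations of Nlrp3 itself. For Il1b the closest were Dchs1, a cadherin, F13a1, a subunit of coagulation factor XIII made by macrophages, and Eno3, an enolase, at 0.073, 0.079 and 0.080 beside 0.23 for Il1b itself. Each was the closest of 9316 protein-coding candidates over only 6 libraries, and none of these 6 genes was called between the genotypes.

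The wider pathway was read from 8 lists of 103 genes, of which 93 were tested. None was called in the same fit by edgeR, 9 had an unadjusted p under 0.05 (9.68%, against 5.44% of all genes tested), and 12 had groups that did not overlap (12.9%, against 10.8%). The only call among them under any alternative was Ccl5 without a filter on low counts. Their median log2 fold change was -0.026, beside -0.00090 for all genes tested. The lists were written with earlier results of these data known, so no result is read from these shares.

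**Figure D5:**
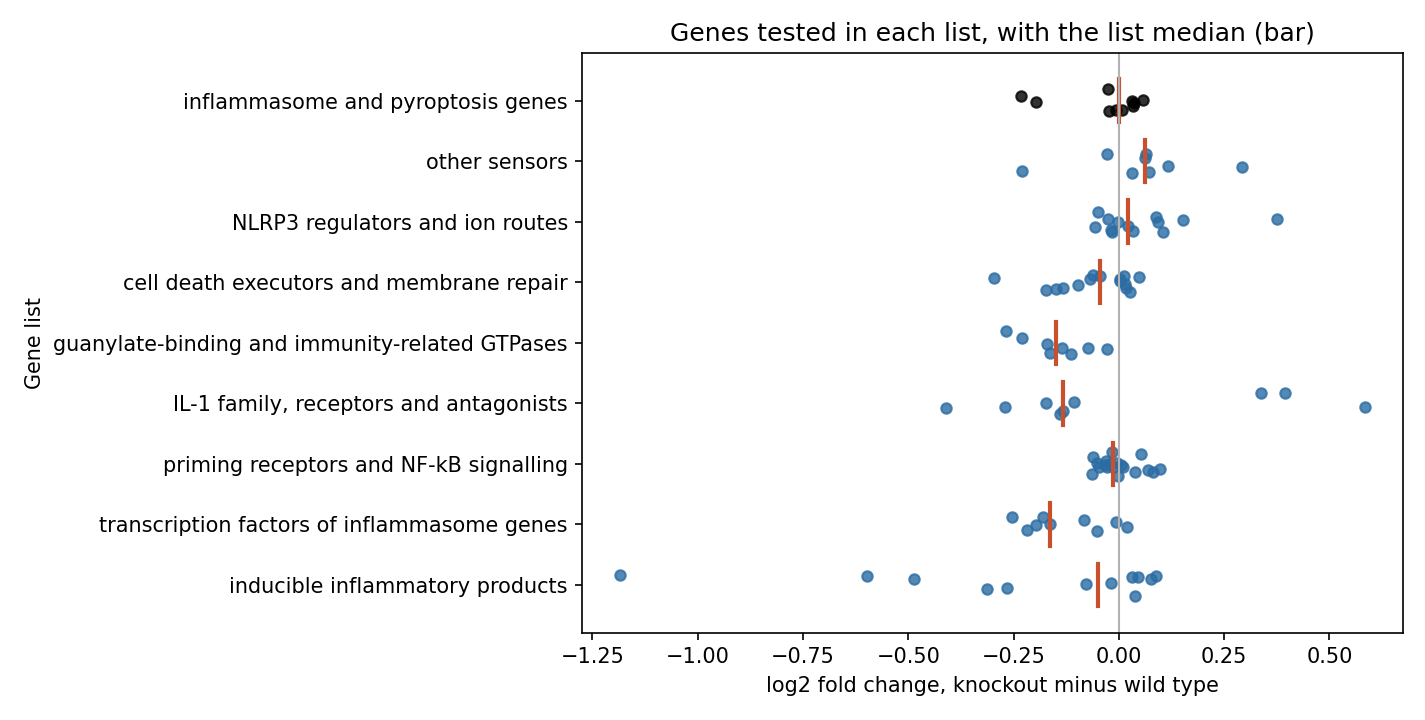
Log2 fold change of knockout minus wild type for each gene tested in the 10-gene set (black) and in 8 pathway lists (blue), with list medians as red bars and vertical jitter for legibility. List medians lie between -0.16 and 0.063, and no gene shown was called.

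Of 11 other sensors 8 were tested, with a median log2 fold change of 0.063, 2 negative and 6 positive. Mefv, which encodes pyrin, the sensor of inactivated RhoA, was at 29.5 CPM per kb in wild type, above Nlrp3, and had a fitted log2 ratio of -0.23 (SE 0.072, adjusted p = 0.785). Its knockout libraries stood at 89.0, 77.3 and 78.9 CPM and its wild type libraries at 94.5, 104 and 89.1 CPM, so the groups did not overlap. Nlrp1b, a sensor of anthrax lethal factor, was at 18.1, 22.5 and 18.7 CPM in knockout wells and at 16.9, 15.9 and 15.8 CPM in wild type wells. Those groups did not overlap either, and the log2 fold change was 0.29 (SE 0.090, adjusted p = 0.778). Leaving out knockout replicate 2 gave 0.19 and leaving out knockout replicate 1 gave 0.35. Naip2, a NAIP receptor that works with NLRC4, was at 20.9 CPM per kb. Naip genes are near-identical copies, so their counts are uncertain. Nlrp6, Nlrp9b and Nlrp12 did not pass the filter, with at most 12 counts in a library.

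Of the genes that regulate NLRP3 or move ions, 13 of 14 were tested and none was called, with a median log2 fold change of 0.023. Txnip, which binds thioredoxin and has been linked to NLRP3, and Ddx3x, a helicase that binds NLRP3, were the most abundant at 136 and 68.3 CPM per kb in wild type. The smallest p-values were those of Fbxl2, a ubiquitin ligase subunit, at 0.38 (SE 0.12, adjusted p = 0.825), and of Sugt1, a chaperone partner of NLRP3, at 0.092 (SE 0.047, adjusted p = 0.939). The following 2 genes were named after their values were seen. P2rx7, the ATP-gated channel that lets potassium out, averaged 159 ± 0.425 CPM over knockout wells and 159 ± 4.73 CPM over wild type wells (SD, n = 3 each). Kcnk6, a potassium channel of the plasma membrane that acts with it, averaged 96.3 ± 0.771 CPM over knockout wells and 94.0 ± 1.56 CPM over wild type wells (SD, n = 3 each). The log2 fold changes were -0.0020 (SE 0.042) for P2rx7 and 0.034 (SE 0.041) for Kcnk6. In this list 3 of the 13 genes tested, Fbxl2, Sugt1 and Kcnk6, had groups that did not overlap, all higher in knockout. Over all genes tested 10.8% did not overlap, 5.73% with knockout higher.

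Genes of cell death execution and membrane repair also did not pass the test, with 15 of 17 tested and a median of -0.044. Ninj1, which ruptures the plasma membrane at the end of pyroptosis, was at 292 CPM per kb in wild type and had a log2 fold change of 0.012 (SE 0.060). Chmp4b, an ESCRT-III subunit of membrane repair, was at 157 CPM per kb, with -0.061 (SE 0.049). Fadd, an adaptor of death receptors, had -0.17 (SE 0.088, adjusted p = 0.939) and Ripk3, a kinase of necroptosis, -0.13 (SE 0.10, adjusted p = 0.968). Gsdma and Gsdmc, other gasdermins, had counts of 0 in all libraries.

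All 8 guanylate-binding proteins and immunity-related GTPases, some of which expose bacterial ligands to caspases, had negative log2 fold changes. Their median was -0.15, and 0 of 8 were called or at an unadjusted p under 0.05. Negative values made up 50.4% of all genes tested. For Gbp2 the log2 fold change was -0.23 (SE 0.17, adjusted p = 0.968) and Gbp5 -0.27 (SE 0.18, adjusted p = 0.966). Gm12250, which encodes the GTPase Irgb10, was at 42.3 CPM per kb in wild type, after Gbp2 at 52.3. The summed level of the list ran from 438 to 580 CPM in knockout and from 487 to 719 CPM in wild type libraries. Without wild type replicate 3 the log2 fold changes of Gbp2 and Gm12250 were 0.014 and 0.0011, and without wild type replicate 1 that of Gbp2 was -0.38. For Gbp5, leaving out knockout replicate 1 gave -0.082 and leaving out wild type replicate 1 gave -0.39.

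In the list of IL-1 family members, receptors and antagonists 9 of 11 genes were tested, with a median of -0.13. Il18bp and Il1rn, which encode the soluble antagonists of IL-18 and of the IL-1 receptor, were the most abundant, at 10.7 and 4.36 CPM per kb in wild type. Their log2 fold changes were -0.17 (SE 0.15) and -0.11 (SE 0.075). With 1 library left out that of Il18bp ran from -0.41 to -0.069. The antagonist Il1rn was thus above Il1b, at 2.44 CPM per kb. Il18rap, a subunit of the IL-18 receptor, had counts of 126, 117 and 110 in knockout wells and of 59, 67 and 71 in wild type wells. The groups stood well apart, with a log2 fold change of 0.58 (SE 0.15), but the adjusted p was 0.549. Summed neutrophil markers were also higher in each knockout library than in each wild type library, though 2 of the 12 had negative log2 fold changes, and their part in this value was not tested. Sigirr, an inhibitory receptor of the family, had 0.39 (SE 0.23, adjusted p = 0.953).

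Receptors and NF-κB signalling genes that carry the priming signal were all tested, 19 of 19, and had the narrowest range of the 8 lists, with log2 fold changes from -0.064 to 0.097 and a median of -0.015. Cd14 and Tlr2, which bind bacterial products at the cell surface, were at 303 and 94.6 CPM per kb in wild type, with log2 fold changes of 0.080 (SE 0.11) and 0.052 (SE 0.14). Irak2, a kinase downstream of MyD88, had -0.064 (SE 0.043) and Rela, the p65 subunit of NF-κB, -0.062 (SE 0.046).

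Transcription factors that act on inflammasome genes had negative log2 fold changes in 8 of 9 cases, with a median of -0.16 and none called. Irf2, described as an activator of Gsdmd transcription, was at 62.8, 65.6 and 61.5 CPM in knockout wells and at 68.1, 71.5 and 73.1 CPM in wild type wells. The groups did not overlap, and the log2 fold change was -0.16 (SE 0.049, adjusted p = 0.755), while that of Gsdmd itself was 0.0080. Nfkbiz, which encodes an NF-κB cofactor, had -0.22 (SE 0.084, adjusted p = 0.903). Leaving out knockout replicate 1 gave -0.14 and leaving out wild type replicate 1 gave -0.29. Spi1, which encodes the macrophage factor PU.1, and Cebpb were the most abundant, at 171 and 69.9 CPM per kb in wild type, with 0.020 (SE 0.058) and -0.25 (SE 0.12). Cebpb was at 82.3, 87.2 and 95.3 CPM in knockout wells and at 129, 86.5 and 99.8 CPM in wild type wells, and its log2 fold change was -0.078 without wild type replicate 1 and -0.38 without wild type replicate 2.

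Products that inflammatory stimuli induce stood at unequal resting levels. Of 14 genes 12 were tested, with a median of -0.049. Acod1, the itaconate-producing enzyme, and the chemokine gene Ccl3 were the most abundant, at 104 and 103 CPM per kb in wild type. Il6 and Csf3, named after their values were seen, had at most 2 counts in a library and did not pass the filter, and Tnf, named likewise, was at 17.7 CPM per kb. Within the same wild type cells, transcripts of Acod1, Ccl3 and Tnf were above Il1b per length and those of Nos2, at 0.214 CPM per kb, below it. Nos2, the inducible nitric oxide synthase, had counts of 6, 13 and 17 in knockout wells and of 13, 19 and 38 in wild type wells, and the fitted log2 ratio was -1.19 (SE 0.50, adjusted p = 0.908). It was -0.67 without wild type replicate 3 and -1.60 without knockout replicate 3. Ccl5, a chemokine of the interferon response, had -0.49 (SE 0.17, adjusted p = 0.881). It stood at 37.4, 38.9 and 46.7 CPM in knockout wells and at 47.4, 48.2 and 76.5 CPM in wild type wells, so the groups did not overlap. With 1 library left out the log2 fold change ran from -0.61, without wild type replicate 1, to -0.22, without wild type replicate 3. Acod1, at -0.078, ran from -0.23 to 0.17 without the same libraries.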

How the data were processed

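The deposited values are unnormalized read counts for Ensembl gene IDs. The submitters' processing notes list HISAT2, featureCounts and GRCm38; for versions, annotation release and strand setting the entry is "not given in the sources used here". Symbols, coordinates and exon lengths came from GENCODE M21 on the same build (55240 of 55421 IDs matched). Members and lists were chosen with earlier results of these data known. Counts were filtered with filterByExpr (13588 genes left) and scaled by TMM in edgeR 4.0.16 (R 4.3.3). Knockout and wild type, 3 libraries each, were compared with the two-sided quasi-likelihood test, default options, genotype as the only term, Benjamini-Hochberg adjustment over all genes and calls at 0.05. Standard errors and 95% intervals were derived from the F statistic. Levels between genes are CPM per kb of merged exons, with no test. Within each group, every pair of libraries differed by more than sampling noise (chi-square over degrees of freedom 3.88 to 19.9).

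From each pathway list the text names called genes, the 2 with the smallest p and the 2 of highest wild type level; exceptions are stated. Alternatives were other scalings, DESeq2 1.42.0, limma-voom (limma 3.58.1), other filters and priors, the replicate block, another gene length and leaving out each library. On simulated data for this comparison (2 sets of 13588 genes, 200 changed in each), the share recovered was 68.7% at 1.5-fold, 70.9% at 2-fold and 95.5% at 4-fold. The adjusted threshold is easier to pass when more genes change, and the real comparison called 14. These shares may therefore overstate what the real comparison could recover.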

Additional observations from a re-analysis of the deposited data

How the results depend on the processing

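No member was called under any of the alternatives run (other scalings, tests, filters, priors, the replicate block and each library left out). Log2 fold changes of Il1b, Il18 and Nlrc4 kept their sign under each alternative that gave a value; Il1b and Il18 gave none when the filter was a 10 CPM mean, which removes them. With library totals as the scaling, which moves the median of all genes to 0.042, Aim2 (0.037), Casp4 (0.023) and Nek7 (0.016) turned positive, and Aim2 did so without a filter (0.0019). With 1 library left out, ranges were -0.093 to 0.13 for Nlrp3, -0.045 to 0.031 for Aim2, -0.0015 to 0.097 for Pycard, -0.024 to 0.091 for Casp1, -0.13 to 0.090 for Casp4, -0.044 to 0.092 for Gsdmd, -0.056 to 0.012 for Nek7, 0.0041 to 0.068 for Nlrc4, -0.39 to -0.11 for Il1b and -0.30 to -0.070 for Il18. Members with groups that do not overlap numbered 0 to 1 with 1 library left out: Il1b without knockout replicate 1 and Il18 without wild type replicate 1. Groups with fewer libraries separate more easily, and the share over all genes was not computed for these splits. No result about these members is read from it.

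Over all genes, 14 were called, against 40 with the DESeq2 test, 151 without a filter, 5 under the 10 CPM filter and 4 to 12 with 1 library left out (12 without knockout replicate 1, 5 without 2, 4 without 3, and 7, 6 and 9 without wild type replicates 1, 2 and 3); the cause was not tested. Pathway genes called numbered 1 without a filter (Ccl5, log2 fold change -0.48, adjusted p = 6.02e-05, edgeR) and 0 otherwise. Replicate numbers are shared in the labels. Deviations of same-numbered libraries from their group means had correlations across genes of 0.057, -0.12 and 0.039. With 3 libraries per group these values cannot show whether same-numbered libraries were prepared together. With the replicate block 17 genes and 0 members were called, and not every library correlated best with its own number. At 86 to 150 counts a library, Il1b is the member whose precision depth limits most.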
